A study of Drosophila melanogaster and Drosophila mauritiana and Drosophila simulans with 22 samples.

Results

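Testis expression of the sons of Drosophila simulans mothers and D. mauritiana fathers, called the mauritiana hybrid here, was compared with that of the mother species. The comparison rests on 6 of the 22 arrays of the series, chosen by their titles: 3 of hybrid testes and 3 of D. simulans testes. D. simulans was strain 14021-0251.2, which also supplied the mothers of the cross, and the fathers were of D. mauritiana strain 14021-0241.1. For the cross, 10 females were kept with 15 males in a vial, and all flies were reared at 25 °C. Each sample was a pool of 200 testes, freed of accessory glands, from males 4 days old. Beside these arrays stood 4 arrays of D. mauritiana testes and 3 of the melanogaster hybrid, which had mothers of the same D. simulans strain and fathers of D. melanogaster strain 14021-0231.00. None of these groups carried a transgene, a mutation or a treatment in the labels, and each is known from 1 strain per species or 1 cross. On every array the testis RNA, labelled with Cy5 after 1 round of amplification, was set against RNA of whole D. melanogaster males, labelled with Cy3. None of the testes in these groups were of pure D. melanogaster, the species of the reference. How far sequence differences between species changed the ratios, apart from RNA levels, was not tested. Values are log2 ratios, testes over whole male. The median of each array was set to 0, so that 0 is the middle gene of that array and not the level of the whole fly.

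D. simulans and D. mauritiana are close relatives that can be crossed. Their hybrid females are fertile and their hybrid males are sterile, as is common when the sex with unlike sex chromosomes is affected first. In the testis, spermatocytes transcribe most of the genes needed later, before the meiotic divisions. Spermatids then rebuild the haploid cell into a sperm, with a long tail, fused mitochondria and a condensed nucleus, and only a small set of genes, the cup and comet genes, is transcribed after meiosis. In bulk testes, fewer cells of a type and less RNA per cell cannot be told apart.

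The hybrid arrays held 26496, 26166 and 20891 values of 27648 rows, and the simulans arrays 26473, 26436 and 25814. Hybrid array 3 thus had fewer values, and its genes spread more widely, with an SD over genes of 1.53 against 0.958 and 1.13 in the other hybrid arrays and 0.888 to 0.974 in simulans. Across genes, which are not independent replicates, the hybrid arrays correlated with each other at r = 0.76 to 0.88 and with the simulans arrays at 0.58 to 0.73. Simulans arrays 1 and 2 correlated at 0.97, and differed by only 1.05 times the noise between duplicate spots, against 2.0 and 2.04 times for the other simulans pairs. Nothing in the labels tells whether this pair was 1 RNA hybridised again. In that case D. simulans would have 2 samples and p-values would come out too small, so counts with the pair averaged into 1 array are given beside the main ones. The series' design text calls the replicates independent, but nothing says that they came from separate cultures, so the spread behind the p-values may be technical. The number of arrays limits the precision: an exact permutation test of 3 arrays against 3 cannot go below p = 0.10 for a single gene.

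Of 6784 genes tested, 517 passed limma's test at an adjusted p of 0.05, which is 7.62%. In the hybrid 354 genes were higher (5.22%) and 163 lower (2.4%) than in D. simulans. The median difference over all genes was -0.06, and 1696 genes had an unadjusted p below 0.05. Of the genes called, 512 differed by more than 2-fold and 125 by more than 4-fold, 93 of them upwards and 32 downwards. More than 8-fold differences were found in 7 genes in each direction. The groups did not overlap in any of the 517, but they did not overlap in 32.5% of all 5895 genes with a value on every array either. With simulans arrays 1 and 2 averaged, 136 genes passed (2%), 110 higher (1.62%) and 26 lower (0.383%), all of them among the 517. Leaving out hybrid array 1 gave 1249, array 2 208 and array 3 422, and leaving out simulans array 1, 2 or 3 gave 177, 153 and 195. Array rows with no gene in the annotation, 11283 tested, passed in 518 cases (4.59%). The split depends on the scale: without centring 251 were higher and 313 lower, with all arrays scaled to 1 spread 294 and 264, and after quantile normalization 539 and 522. The uncentred arrays shift the median of all genes to -0.31.

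**Figure D1:**
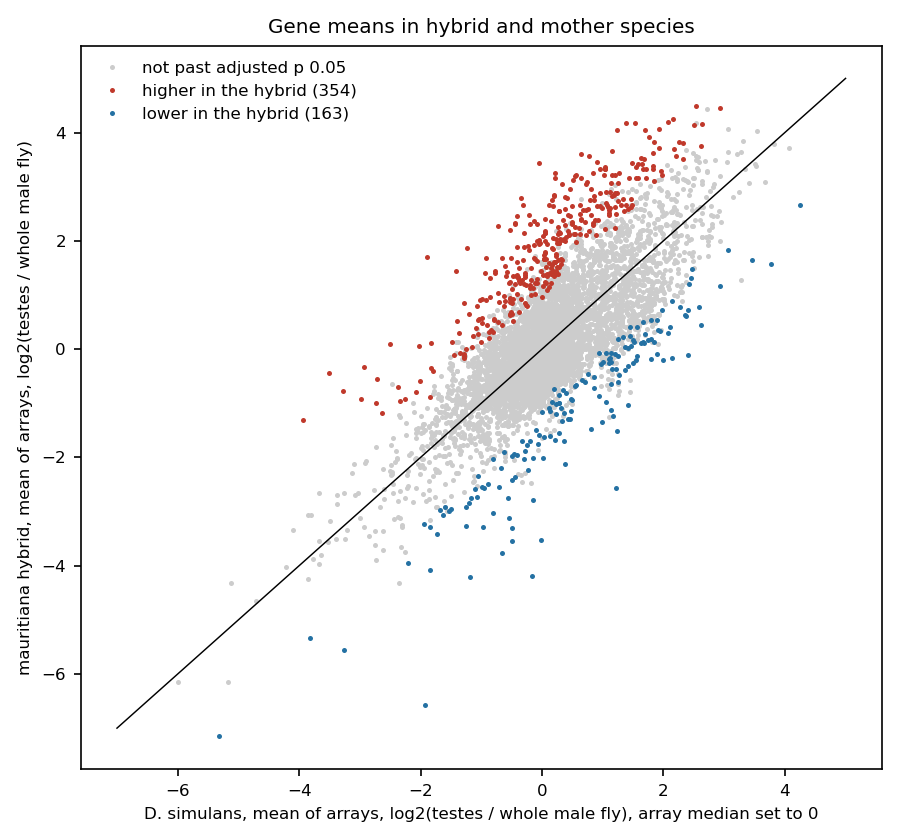
Mean of each of 6784 genes in D. simulans (horizontal axis) and in the mauritiana hybrid (vertical axis), as log2 ratio of testes over whole male fly with each array's median set to 0. The line marks equal values; the 354 genes higher in the hybrid lie above it and the 163 lower genes below it, among the many that did not pass.

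Most genes raised in the hybrid were already above the array median in D. simulans. Among the 354 higher genes, 209 had means above 0 in both groups, 123 rose from below 0 in D. simulans to above 0 in the hybrid, and 22 were below 0 in both. Among the 163 lower genes, 68 crossed from above 0 to below it, 55 were below 0 in both groups and 40 above 0 in both. Of all tested genes 50.4% had a mean above 0 in D. simulans and 46.1% in the hybrid. Genes known only by a CG number made up 46.8% of those called and 42.3% of those tested.

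Among the lowest genes in the hybrid were proteins of muscle and of the cuticle. Scp1, a calcium-binding protein of muscle, was at -7.30, -5.30 and -7.12 on the hybrid arrays and at -1.91, -2.16 and -1.69 in D. simulans. All hybrid arrays lay far below all simulans arrays, and the difference was -4.65 ± 0.49 (SE, n = 3 and 3), a 25.2-fold lower ratio (limma, adjusted p = 0.00254). Mlc1, a myosin light chain, read -4.40, -3.63 and -4.62 against -1.37, -1.21 and -0.97, a difference of -3.03 ± 0.32 (adjusted p = 0.00254). Acp1, an adult cuticle protein, stood near the middle gene in D. simulans, at -0.12, 0.20 and -0.14, and at -3.64, -3.18 and -3.77 in the hybrid. Its fall of 11.4-fold (-3.51 ± 0.27, adjusted p = 0.00167) had the hybrid arrays close together. Cpr100A (-2.63 ± 0.32) and Cpr49Ae (-2.80 ± 0.68) are cuticle proteins too, but the Cpr49Ae values in the hybrid ran from -1.56 to -4.95.

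The other genes among the 10 lowest were Sf3b2, named for a subunit of a splicing factor, and 4 genes known by number. Sf3b2 was at -2.14, -3.77 and -4.70 in the hybrid and at -0.21, -0.48 and -0.82 in D. simulans, a wide hybrid spread beside a narrow simulans one. CG7214 differed by -4.03 ± 0.49 and CG7203 by -2.58 ± 0.30, and both were below 0 on every array of both groups. CG31451, in contrast, lay above 0 on every simulans array (1.67, 1.70 and 0.29) and below 0 on every hybrid array (-3.70, -1.33 and -2.64), differing by -3.78 ± 0.59. CG1835 did so on hybrid arrays 1 and 3 only, at -2.95 and -1.77, with 0.17 on array 2, against 0.69 to 1.57 in D. simulans.

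The highest gene was Spase22-23, a subunit of the signal peptidase that trims proteins as they enter the endoplasmic reticulum. It read 2.17, 1.99 and 0.96 in the hybrid and -1.67, -1.68 and -2.34 in D. simulans, so it passed from well below the array median to above it. The difference was 3.61 ± 0.37, or 12.2-fold (limma, adjusted p = 0.00254). Acp53C14a, a seminal fluid protein made in the accessory gland, was at -0.76, 0.12 and -0.69 against -3.65, -3.45 and -3.40 (3.06 ± 0.30, adjusted p = 0.00254). Agpat2, an acyltransferase of phospholipid synthesis, was at -0.73, -0.72 and -0.73 in D. simulans and at 0.85, 2.89 and 3.11 in the hybrid. Its hybrid array 1 was thus far below the other two, though still above every simulans array (3.00 ± 0.52, adjusted p = 0.0106).

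Sou rose by 3.11 ± 0.45 and the other 6 of the 10 highest are genes known by number. CG3795 differed by 3.50 ± 0.55, CG8851 by 3.14 ± 0.29 and CG16898 by 3.04 ± 0.26. CG16898 was the steadiest, with 2.98, 3.43 and 3.36 in the hybrid and 0.22, 0.23 and 0.21 in D. simulans. CG2964, CG4955 and CG9240 differed by 2.94 to 2.99. Each gene was spotted on more than 1 row of the array, and for these 20 genes the rows' differences lay a median of 0.21 apart and at most 0.54, for CG7203. Cpr49Ae, CG1835 and Sf3b2 no longer passed with simulans arrays 1 and 2 averaged, and without hybrid array 2 Agpat2, CG3795, Cpr49Ae and Sf3b2 did not. Scp1, Mlc1 and CG1835 did not pass with all arrays scaled to 1 spread.

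**Figure D2:**
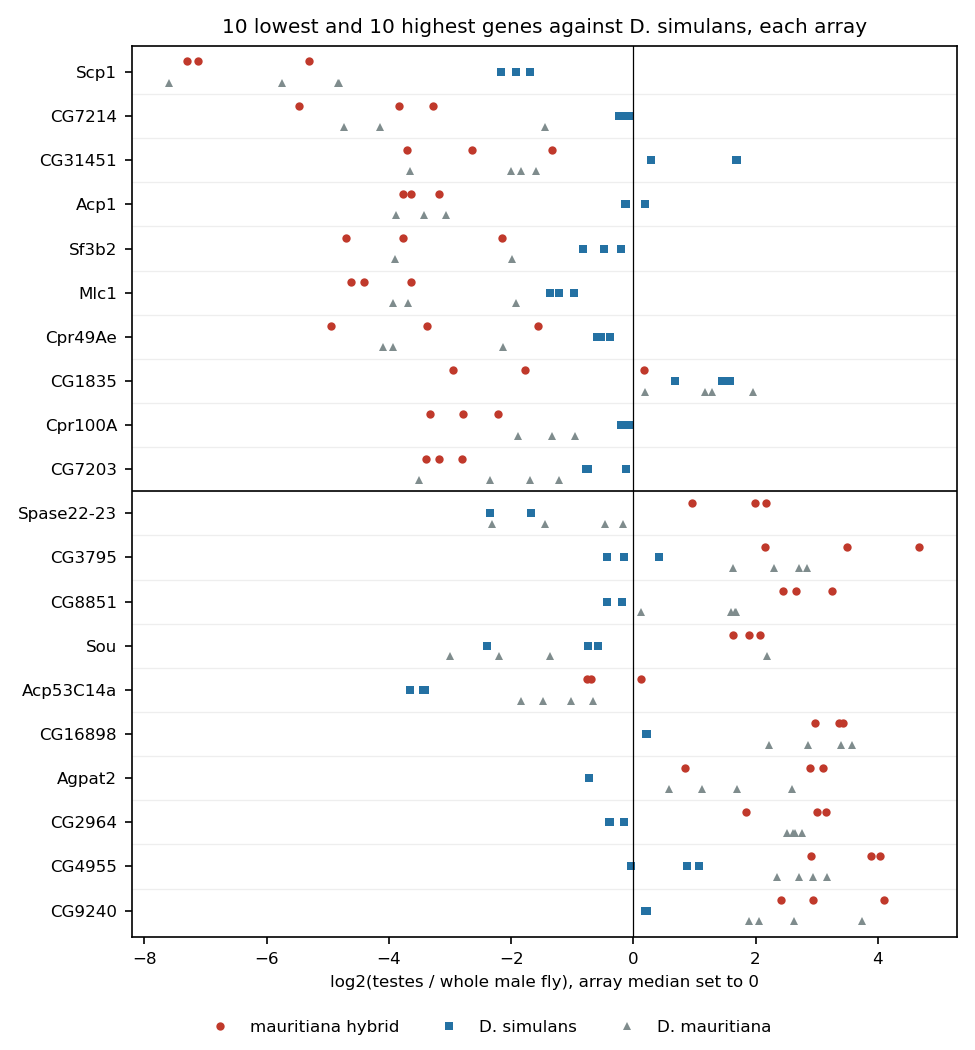
Value on every array of the 10 lowest and the 10 highest genes against D. simulans, as log2 ratio of testes over whole male fly; missing values are not drawn. By the rule that chose the 20 genes, hybrid (circles) and D. simulans (squares) do not overlap in any of them. D. mauritiana (triangles) lies near D. simulans in CG1835, Spase22-23 and, but for 1 array, Sou, and nearer the hybrid in most others.

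Genes of other organs bear on how these lists are read, since the labels describe testes without accessory glands. Of the accessory gland markers, genes of seminal fluid proteins, 5 were measured and 4 were higher in the hybrid, with 0 lower. Their median difference was 2.60, against -0.06 over all genes, of which 5.22% were higher. Acp36DE, a protein needed for sperm storage, read -1.94, -0.95 and -1.03 in the hybrid and -3.67, -3.72 and -4.42 in D. simulans (2.63 ± 0.35, limma adjusted p = 0.0052). Acp53Ea differed by 2.60 ± 0.38 and Acp32CD by 1.58 ± 0.31, and intr, a member of the sex peptide network, by 0.99 ± 0.38, which did not pass. The median of the markers ran from -0.24 to 0.50 on the hybrid arrays, -3.07 to -1.81 in D. simulans, -1.66 to -0.54 in D. mauritiana and 1.61 to 2.34 in the melanogaster hybrid. After simulans arrays 1 and 2 were averaged, 3 of 5 passed. How far gland RNA in the pools takes part in the other differences was not tested.

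Muscle markers moved the other way: of 10 measured, 7 were lower in the hybrid and 0 higher, with a median difference of -1.83. Of all tested genes 2.4% were lower. TpnC4, a troponin C, was at -4.27 and -3.25 on hybrid arrays 1 and 2, with no value on array 3, and at -1.01, -0.52 and -0.42 in D. simulans (-3.11 ± 0.39, adjusted p = 0.0052). TpnC41C, another troponin C, differed by -2.24 ± 0.38, Prm, paramyosin, by -2.32 ± 0.44, Act88F, the flight muscle actin, by -2.02 ± 0.35, and Mlc2 by -1.51 ± 0.27. Every one of the 10 was below 0 on all 6 arrays. The median ran from -4.40 to -3.16 in the hybrid, -1.83 to -1.19 in D. simulans, -3.56 to -1.28 in D. mauritiana and -3.50 to -3.41 in the melanogaster hybrid. Each median covers only markers with a value. These were 7 of the 10 on hybrid array 3, which gave -4.40, and 8, 10, 5 and 8 on the D. mauritiana arrays. Averaging simulans arrays 1 and 2 left 3 lower, and scaling all arrays to 1 spread left 2. The part of muscle RNA in other differences was not tested.

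**Figure D3:**
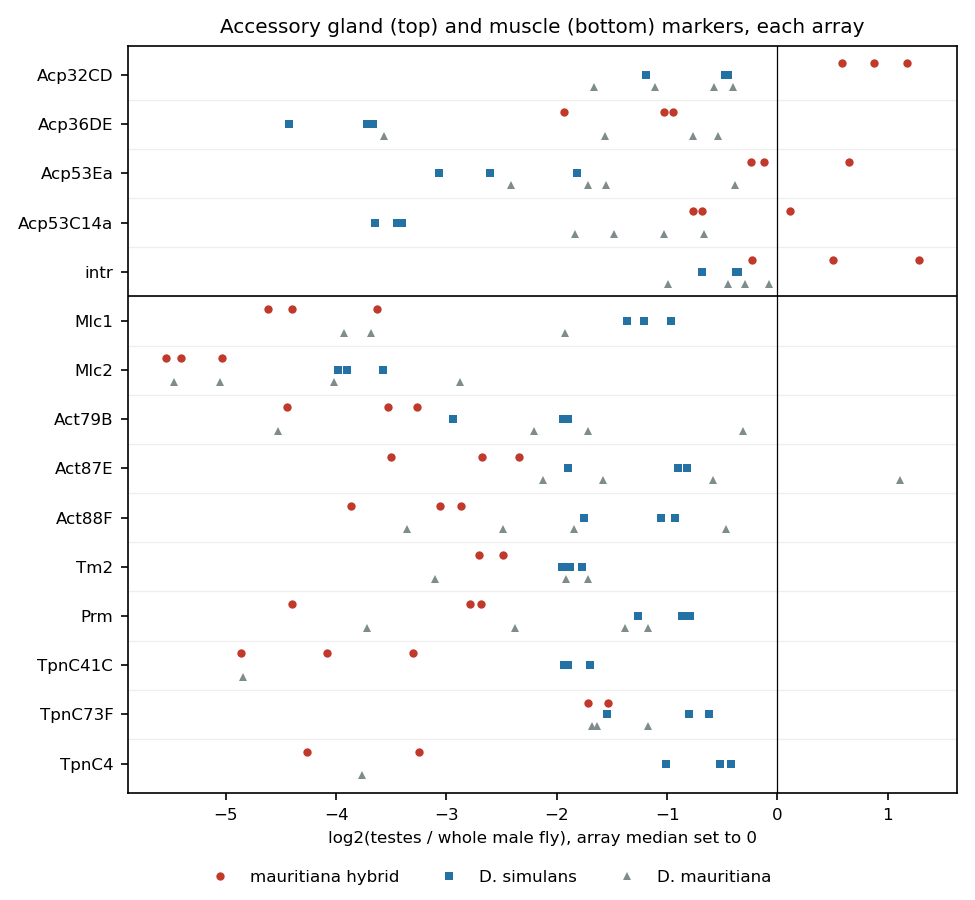
Accessory gland markers (top 5) and muscle markers (bottom 10) on every array of the hybrid, D. simulans and D. mauritiana, as log2 ratio of testes over whole male fly; missing values are not drawn. Hybrid points lie to the right of D. simulans in the top panel for the 4 markers that passed and to the left of it for all muscle markers but TpnC73F, whose ranges overlap.

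Markers of the remaining organs gave 1 call, where 7.62% of all genes were called. Of 19 gut markers 1 was higher, Jon25Bi, a digestive protease of the Jonah family, at -1.31 and -0.59 on hybrid arrays 1 and 2 against -2.45, -2.10 and -2.45 in D. simulans (1.38 ± 0.33, limma adjusted p = 0.0423). It has no value on hybrid array 3, and it did not pass with simulans arrays 1 and 2 averaged. Of 7 eye and nervous system, 7 fat body and 9 blood cell markers, 0 passed in limma in either direction. Their members with the smallest p were inaC, a kinase of photoreceptors (-1.42 ± 0.48, adjusted p = 0.11), Fbp2 (-0.82 ± 0.41, adjusted p = 0.25) and eater, a receptor of blood cells (-0.80 ± 0.28, adjusted p = 0.12). The 3 testis somatic markers with a value did not pass either, and CadN, the cadherin of that list with the smallest p, differed by -0.18 ± 0.41 (adjusted p = 0.82).

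The germline lists asked whether the programme of sperm development differed from the mother species. In simulated data the comparison with D. simulans called 19.2% of 2-fold and 69.6% of 4-fold changes, so genes not called may still differ. Of 7 spermatocyte transcription regulators of the tMAC group and its partners, 0 passed in limma, with a median of -0.68. The closest was achi, a homeodomain protein, at -0.29, 0.01 and -0.56 against 0.63, 0.75 and 0.58 (-0.94 ± 0.26, adjusted p = 0.0626). Its arrays did not overlap, but with the threshold at 0.05 it was not called. Of 8 male meiosis genes 0 passed, with a median of 0.00, and fwd, a lipid kinase of cytokinesis, differed by -1.03 ± 0.32 (adjusted p = 0.0838). After quantile normalization 3 of the regulators and 2 of the meiosis genes were lower, and with all arrays scaled to 1 spread 3 and 1. The 5 stem cell and spermatogonial genes gave 0 calls, with zpg, a gap junction protein of the germline, at -0.59 ± 0.31.

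Late spermatid genes stayed above the array median in the hybrid. Of 6 measured, 0 passed, with a median difference of -0.12. Their median on each array was nonetheless lower in the hybrid, at 0.86 to 1.17, than on every parental array. It ran from 1.28 to 1.66 in D. simulans and from 1.43 to 2.45 in D. mauritiana. Mst87F, a sperm tail protein, was at 0.86, 1.13 and 0.69 in the hybrid and at 1.89, 1.82 and 1.67 in D. simulans (-0.90 ± 0.26, limma adjusted p = 0.0654). Its arrays did not overlap, and its 95% interval of -1.47 to -0.32 allows a 2-fold lower level. The other members, among them dj, don juan, at -0.68 ± 0.35 and ocn, ocnus, at 0.48 ± 0.29, lay on both sides of 0. After quantile normalization 2 of the 6 were lower. Of the 8 axoneme and dynein genes and the 4 tubulin genes 0 passed, and betaTub85D, the tubulin of the sperm tail, differed by -0.43 ± 0.29 (adjusted p = 0.39).

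Of 8 cup and comet genes 2 were higher and 0 lower, against 5.22% of all genes higher and 2.4% lower, with a median of 0.87. p-cup read 2.59, 1.82 and 3.01 against 0.64, 0.47 and 0.18, a 4.12-fold difference (2.04 ± 0.34, adjusted p = 0.00921). boly was at 0.97, 1.10 and 0.95 against -0.38, -0.40 and 0.24 (1.19 ± 0.28, adjusted p = 0.0315), and did not pass with simulans arrays 1 and 2 averaged. Among the sperm leucyl aminopeptidases, which are major proteins of the fly sperm, 2 of 4 were higher and their median was 1.20. S-Lap5 stood at 2.63, 2.75 and 3.00 in the hybrid and at 0.54, 0.54 and 0.15 in D. simulans, 5.23-fold apart (2.39 ± 0.26, adjusted p = 0.00288). S-Lap7 differed by 1.60 ± 0.25 (adjusted p = 0.00809), S-Lap8 by 0.80 ± 0.29 and grsm by 0.17 ± 0.34, and the last pair did not pass. Both calls held with simulans arrays 1 and 2 averaged.

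Genes of protein turnover and folding were read against the 5.22% of all genes that were higher. Of 8 testis copies of proteasome subunits 1 was higher, Prosbeta2R1 (1.21 ± 0.30, limma adjusted p = 0.0379), and of 21 standard subunits 2, Rpn7 of the regulatory particle (1.72 ± 0.32) and Prosbeta5, a catalytic subunit (1.15 ± 0.29). These 3 calls were lost with simulans arrays 1 and 2 averaged. Of 7 heat shock and chaperone genes 4 were higher and 0 lower, with a median of 1.34. Hsp60C, a chaperonin with a role in sperm development, was at 2.12, 2.36 and 2.48 in the hybrid and at -0.05, 0.01 and -1.28 in D. simulans (2.76 ± 0.37, adjusted p = 0.0052). Hsp68, a stress-induced chaperone, rose by 1.73 ± 0.31, Hsc70-5, the mitochondrial Hsp70, by 1.43 ± 0.31 and Hsp60D by 1.15 ± 0.26. Of the 4, 2 held with simulans arrays 1 and 2 averaged. Array rows of Hsc70-5 disagreed, with differences of 2.21, 1.87, 0.64 and 0.99.

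Nuclear genes of the respiratory chain and ATP synthase, 31 measured, were lower in 5 cases and higher in 1, with a median of -0.42. Of all tested genes 2.4% were lower and 5.22% higher. ATPsynB, a stalk subunit of ATP synthase, read -0.89, -0.12 and -0.40 in the hybrid and 1.25 and 1.29 on simulans arrays 1 and 2, with no value on array 3 (-1.74 ± 0.33, limma adjusted p = 0.0177). ATPsynD (-1.68 ± 0.37), ATPsynG (-1.60 ± 0.37) and the complex I subunits ND-18 (-1.74 ± 0.45) and ND-B17.2 (-1.29 ± 0.29) were lower as well, and SdhD of complex II was higher (1.09 ± 0.27). Averaging simulans arrays 1 and 2 left 0 calls in limma in this list. Of 11 testis copies of respiratory chain subunits 0 passed, and COX7AL differed by -1.02 ± 0.28 (adjusted p = 0.0582).

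Translation genes were called about as often as the 7.62% of all genes. Of 20 cytoplasmic ribosomal protein genes 1 was higher, RpS10a, a second copy of RpS10, at 1.0, 0.98 and 1.98 against -0.59, -0.58 and -1.39 (2.17 ± 0.36, limma adjusted p = 0.00954). Of 48 mitochondrial ribosomal protein genes mRpL19 was higher (1.65 ± 0.29), and mRpL18 (-2.28 ± 0.39) and mRpS35 (-1.59 ± 0.33) were lower. mRpL18 crossed from above 0 on every simulans array (1.10, 0.82 and 0.51) to below 0 on every hybrid array (-1.28, -0.81 and -2.32). RpS10a and mRpL18 also passed when simulans arrays 1 and 2 were averaged.

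The piRNA and cytochrome P450 lists gave 1 call each, where 7.62% of all genes were called and 2.4% were lower. Of 18 piRNA pathway genes, which silence transposons in the germline, 1 was lower: tapas, a Tudor domain protein, at 0.44, 0.32 and 0.45 against 1.48 and 1.64, with no value on simulans array 3 (-1.16 ± 0.29, limma adjusted p = 0.0445). Its array rows disagreed, with differences of -0.60 and -0.66 on 2 rows and -1.67 and -1.70 on the other two. It did not pass when simulans arrays 1 and 2 were averaged, nor with 1 row per gene. Of 63 cytochrome P450 genes 1 was lower, Cyp9c1, at -0.02, 0.11 and -0.87 against 1.47, 1.53 and 1.5 (-1.76 ± 0.31, limma adjusted p = 0.0113). Cyp9c1 did not pass when simulans arrays 1 and 2 were averaged. Some of its array rows had hybrid values only, and the rows with values in both groups differed by -1.59 and -1.38. Of 3 antimicrobial and immune genes 0 passed in limma, and PGRP-LE, a sensor of bacterial peptidoglycan, differed by -0.50 ± 0.26 (adjusted p = 0.28).

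The hybrid incompatibility list held genes that earlier work ties to hybrid sterility or lethality of these species, and unc-4, the paralog of OdsH. Of 7 measured, 1 was lower and 0 higher. Of all tested genes 2.4% were lower and 5.22% higher. OdsH, a homeobox gene mapped as a factor of male sterility between D. simulans and D. mauritiana, was at 0.01 and -0.70 on hybrid arrays 1 and 2 and at -0.08, 0.01 and 0.42 in D. simulans. The groups overlapped, and the difference of -0.46 ± 0.34 (limma, adjusted p = 0.45) has a 95% interval of -1.24 to 0.33. Its paralog unc-4 differed by -0.38 ± 0.32 (adjusted p = 0.51). Hmr and Lhr, which cause lethality in crosses with D. melanogaster, differed by -0.47 ± 0.31 and 0.41 ± 0.39, and the nuclear pore gene Nup160 by -0.74 ± 0.31, none of them past the test. Sons receive their X chromosome from the mother, here D. simulans, and so carry no D. mauritiana allele of an X-linked gene.

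The gene of this list that passed was agt, an enzyme that removes alkyl groups from DNA, at 0.65, 0.11 and -0.34 against 1.98, 1.66 and 1.35 (-1.52 ± 0.32, limma adjusted p = 0.0228). It did not pass with simulans arrays 1 and 2 averaged, nor without hybrid array 2. gfzf, a zinc finger gene of lethality in crosses with D. melanogaster, was at 0.33, -0.30 and -0.07 against 0.88, 1.01 and 1.18 (-1.03 ± 0.27, adjusted p = 0.0503). Its arrays did not overlap and it lay just outside the threshold.

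A difference from the mother can come with a difference between the parent species, so the hybrid was also set against D. mauritiana and against the mean of both parents. These comparisons share the hybrid arrays with the one above. The D. mauritiana arrays held 18716, 20138, 13326 and 20638 values, fewer than any simulans array. Against D. mauritiana 169 of 6051 genes passed limma's test (2.79%), 93 higher (1.54%) and 76 lower (1.26%). Leaving out mauritiana array 1, 2 or 3 gave 72, 271 and 55, and hybrid array 2 or 3 78 and 76. In simulated data this comparison called 1% of 2-fold and 37.2% of 4-fold changes. Of the 20 genes named above, Spase22-23 (2.80 ± 0.51, adjusted p = 0.00617) and CG1835 (-2.67 ± 0.59, adjusted p = 0.0191) differed from D. mauritiana as well. For the other 18 the difference from D. mauritiana did not pass, which does not show that they were alike. CG2964, for example, was at 1.85, 3.01 and 3.15 in the hybrid and 2.51, 2.65, 2.62 and 2.77 in D. mauritiana, and S-Lap5 was at 3.14, 2.70, 3.09 and 3.55 in D. mauritiana. Scp1 was at -4.82, -5.75, -7.59 and -4.82 in D. mauritiana, a difference of -0.83 ± 0.62 that did not pass, with 2 of these arrays above every hybrid array.

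Against the mean of both parents 251 of 6050 genes passed (4.15%), 184 higher (3.04%) and 67 lower (1.11%), and 101 with simulans arrays 1 and 2 averaged. Without hybrid array 1, 2 or 3 the count was 425, 60 and 34, without simulans array 1, 2 or 3 105, 106 and 112, and without mauritiana array 1 144. Of these genes 131 had a value on all 10 arrays and hybrid arrays outside all 7 parental arrays, 98 above them and 33 below. Over the 3909 genes with all 10 values, 6.5% had hybrid arrays outside all parental arrays, whether called or not. The 12 named below were chosen as the furthest of these, and no further test was made on them. Acp53C14a, Acp53Ea and Acp32CD of the 5 accessory gland markers were higher than the parental mean and Mlc1 of 8 muscle markers lower. Of the late spermatid, male meiosis and spermatocyte regulator genes 0 passed in limma. The 7 heat shock and chaperone genes gave 0 calls as well, both here and against D. mauritiana, where their median difference was -0.22.

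mkg-p, a testis gene, read -0.13, -0.61 and -0.82 in the hybrid, 0.95, 1.06 and 0.56 in D. simulans and 3.02, 2.84, 2.91 and 3.83 in D. mauritiana. Both parents held it above the middle gene and the hybrid below it, with a difference from the parental mean of -2.53 ± 0.30. Dpy-30L2, a testis copy of a subunit of histone methylation complexes, was at -2.86, -1.88 and -3.02 in the hybrid, with -1.22 to -0.95 in D. simulans and 0.69 to 1.52 in D. mauritiana (-2.52 ± 0.32). CG14891 (-2.61 ± 0.35), CG14995 (-2.10 ± 0.35), CG2201 (-2.10 ± 0.41) and CG1835 (-2.71 ± 0.52) were the others below both parents. In CG14891 and mkg-p the parents themselves were well apart, with the hybrid outside the nearer one, D. simulans.

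Above both parents lay Spase22-23 (3.20 ± 0.43), with D. mauritiana at -1.44, -0.17, -2.31 and -0.46. CG10570 was at -0.92, -0.22 and -0.49 in the hybrid, -2.46, -2.48 and -3.23 in D. simulans and -3.57, -4.48, -5.73 and -3.62 in D. mauritiana (2.99 ± 0.42). It remained below the array median in all 3 groups. CG10803 (2.63 ± 0.33), CG8851 (2.33 ± 0.36), CG5662 (2.28 ± 0.40) and CG10750 (2.28 ± 0.42) lay at 2.45 or more on every hybrid array. Without hybrid array 3 the calls of CG10750, CG5662, CG1835 and CG2201 against the parental mean were lost.

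**Figure D4:**
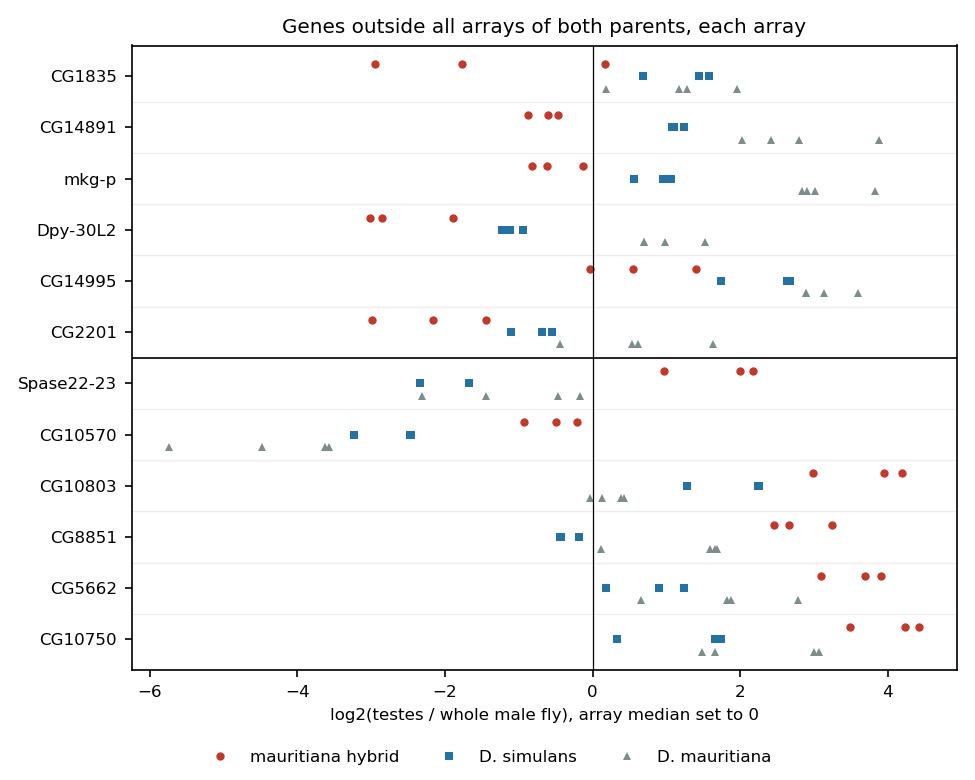
The 6 lowest and 6 highest genes outside all arrays of both parents, each array of the hybrid (circles), D. simulans (squares) and D. mauritiana (triangles), as log2 ratio of testes over whole male fly. The hybrid lies to the left of all parental points in the upper 6 genes and to the right of them in the lower 6, with the narrowest gap in CG1835.

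The melanogaster hybrid shares the mother strain, so the difference between the hybrids was tested directly. Of 6785 genes 1697 passed limma's test (25%), 1067 higher in the mauritiana hybrid (15.7%) and 630 lower (9.29%), and after quantile normalization 1085 and 1197. All 6 late spermatid genes and all 8 cup and comet genes were higher in the mauritiana hybrid, with median differences of 3.27 and 2.90 against -0.20 over all genes. So were 7 of 8 testis proteasome copies, 7 of 11 testis respiratory chain copies and 4 of 4 sperm leucyl aminopeptidases, with medians of 2.98, 2.36 and 4.65. Of 20 ribosomal protein genes 11 were lower and 2 higher, and of the 5 accessory gland markers 3 were lower.

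Single genes differed by up to 7.94 between the hybrids, and by at most 4.65 in size between the mauritiana hybrid and D. simulans. CG9284 was at 3.68, 4.53 and 4.33 in the mauritiana hybrid and at -3.40, -3.75 and -4.12 in the melanogaster hybrid (7.94 ± 0.34), with D. simulans at 3.08, 3.23 and 1.32. CG10252 (7.56 ± 0.34) and CR11023 (7.49 ± 0.32) followed. At the other end CG4250 was at -0.14, -0.33 and -0.92 against 4.45, 4.92 and 5.16 (-5.31 ± 0.34), and CG5167 (-4.76 ± 0.39) and CG16926 (-4.43 ± 0.31) were lower too. In CG9284 and CG4250 the mauritiana hybrid lay near D. simulans and the melanogaster hybrid far from it.

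**Figure D5:**
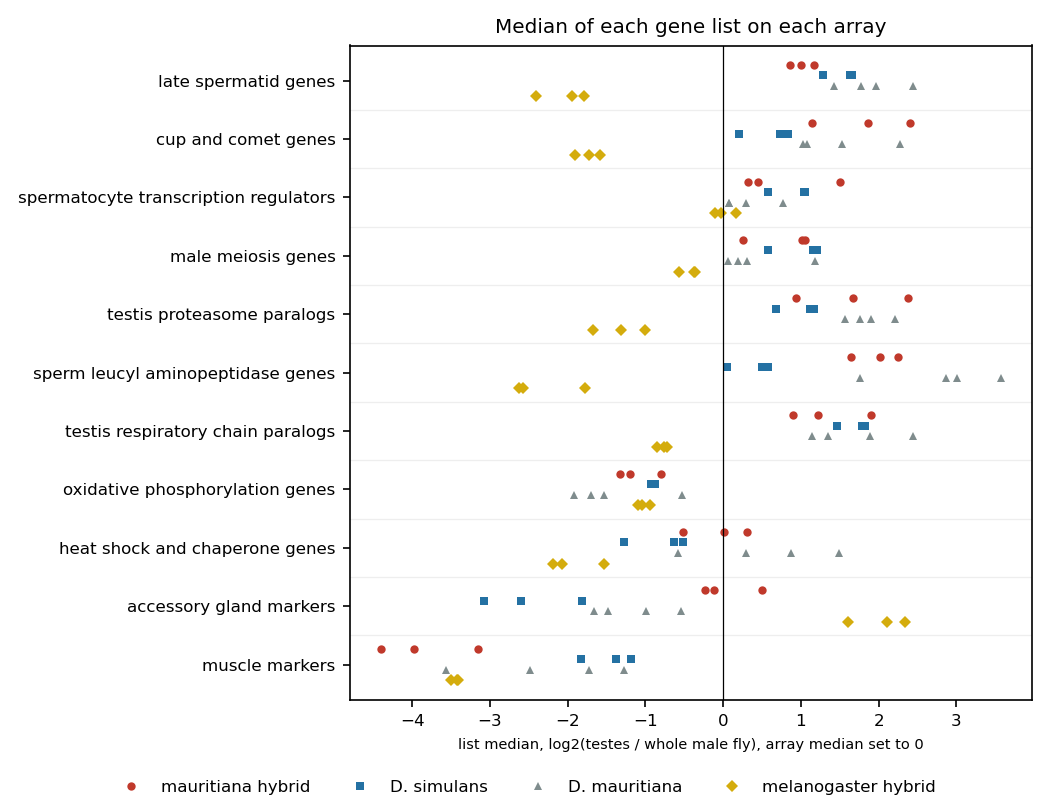
Median of each gene list on each array of the mauritiana hybrid, D. simulans, D. mauritiana and the melanogaster hybrid, as log2 ratio of testes over whole male fly. Each median covers the genes with a value on that array. For late spermatid genes the mauritiana hybrid lies at 0.86 to 1.17, below D. simulans at 1.28 to 1.66 and D. mauritiana at 1.43 to 2.45. The melanogaster hybrid lies at -2.40 to -1.79. Accessory gland and muscle markers separate the mauritiana hybrid from D. simulans.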

How the data were processed

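The authors deposited 1 table of values for all 22 arrays, 27648 rows each. Its deposited log2 values are taken as the ratio of testes over whole flies, since the titles name the testes first and genes of gut and muscle read low. That the logarithm has base 2 is inferred. Per the labels' protocols, the Canadian Drosophila Microarray Centre labelled and hybridised the RNA. Image analysis and the normalization within arrays are not given in the sources used here, there was no dye swap, and scanner files were not analysed here. Of the rows, 15116 carried 1 gene symbol in the platform annotation (6793 genes), 102 several and 12430 none; symbols may be old.

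The median over rows with 1 symbol was subtracted from each array, rows of a gene were averaged, and genes with values on at least 2 arrays a side entered lmFit and eBayes of limma 3.58.1 (R 4.3.3), with Benjamini-Hochberg adjusted p under 0.05 as the threshold. Each comparison used only the arrays of its groups. Errors are SE of differences. All adjusted p-values are limma's. The script was tested on simulated data, with 2-fold and 4-fold changes put into some of the genes.

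Members, gene lists and alternatives were chosen with earlier results of these data known. Named genes are the 10 highest and 10 lowest against D. simulans (called, all 6 arrays, no overlap), up to 3 called members of each list or its member with the smallest p, all hybrid incompatibility genes, the 6 highest and 6 lowest outside both parents, and the 3 highest and 3 lowest against the melanogaster hybrid; others are named as examples or to complete a list and were chosen after their values were seen. Chromosome arms were not analysed, since no table of gene positions was used here.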

Additional observations from a re-analysis of the deposited data

Results flagged for a closer look

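Some values lay far from the other arrays of their group, by Dixon's criterion for 4 samples, which chance meets in about 1 in 20 groups. Only D. mauritiana, the group with 4 arrays, was examined, so the other groups were not checked in this way. Every named gene and every list median with a value on all 4 arrays was screened, so chance alone would flag several. Array 2 was low for CG8851 (0.12), S-Lap7 (0.32) and CR11023 (0.28), array 4 was high for CadN (1.02) and for the median of the axoneme and dynein genes (1.65), and array 3 was high for Cyp9c1 (0.86). None of these arrays enters the comparison with D. simulans.

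The mauritiana and melanogaster hybrids, both with D. simulans mothers, differed in 1697 genes in a direct limma test, among them genes named above. The mauritiana hybrid was lower for Scp1 (-2.08), CG31451 (-2.18), Acp53C14a (-3.96), CG4250 (-5.31), CG5167 (-4.76) and CG16926 (-4.43). It was higher for CG3795 (3.87), CG8851 (4.01), CG16898 (2.33), Agpat2 (3.55), CG2964 (3.13), CG4955 (3.46) and CG9240 (3.68), and for CG9284 (7.94), CG10252 (7.56) and CR11023 (7.49). Acp53C14a, a seminal fluid gene, was thus higher in the mauritiana hybrid than in D. simulans and higher still in the melanogaster hybrid.

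Array rows with no gene in the platform annotation, left out above, also differed between hybrid and D. simulans. Of 11283 such rows tested, 518 passed limma's test (4.59%), 352 higher and 166 lower.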

How the results depend on the processing

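Counts of genes past limma's threshold moved with the values, the arrays, the spread and the hypothesis tested. For the hybrid against D. simulans (517), array weights gave 3160, quantile normalization 1061, averaging simulans arrays 1 and 2 136, the same without hybrid array 3 130 (added after seeing the data), the spread from all 22 arrays 112 and a 2-fold minimum 11. Leaving out 1 array gave 153 to 1249. Against D. mauritiana (169), quantile normalization gave 261 and leaving out 1 array 55 to 271. Against the parental mean (251), averaging gave 101, all 22 arrays 112, quantile normalization 447 and leaving out 1 array 34 to 425. Against the melanogaster hybrid (1697) the range over leaving out 1 array was 1213 to 2038. The cause of these moves was not tested, beyond the fewer arrays in the averaged and reduced fits.

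Of 1759 values of named genes under an alternative, 1477 stayed on their side of the threshold (those never called could change sign), 241 no longer passed in the same direction, 41 newly passed and 0 changed direction in a call. Of the 20 genes furthest from D. simulans, 14 passed with the spread from all 22 arrays and 8 with the 2-fold minimum. Of the 27 called list members named, 25 did not pass with the 2-fold minimum, 19 with the spread from all 22 arrays, 14 with simulans arrays 1 and 2 averaged, 11 without hybrid array 2, 12 without simulans array 1 or 2, and 11 without simulans array 3. With 1 row per gene, agt, Jon25Bi, Prosbeta5 and tapas did not pass. The labels do not say that arrays with the same replicate number share a day or batch. Same-numbered hybrid and simulans arrays correlated at -0.25, 0.05 and -0.23 in their deviations, and hybrid and mauritiana arrays at 0.16, -0.10 and 0.17. Same-numbered arrays of the 2 hybrids correlated at 0.086, 0.18 and 0.11, and those with different numbers at -0.13 to -0.03. Whether the numbers pair the arrays of the 2 hybrids was not tested. With the replicate number as a block, 480, 317 and 1972 genes passed against D. simulans, D. mauritiana and the melanogaster hybrid, and boly, Jon25Bi, Prosbeta2R1, Prosbeta5 and tapas lost their calls against D. simulans. Directions of list medians turned for some lists with 0 or few calls: eye markers had 0.59 with all arrays scaled to 1 spread, standard proteasome genes -0.09, and gut markers -0.12 without centring. Rows by chromosome arm, planned, were not run.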

Other observations

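Further gene groups were put together after the values were seen, so their counts are descriptions. The shares of all tested genes to set beside them are 5.22% higher and 2.4% lower than in D. simulans. Of 31 genes of protein entry into the endoplasmic reticulum and its quality control, 10 were higher in the hybrid than in D. simulans, 1 was lower, and their median difference was 0.59. Beside Spase22-23 they include Hrd3, at 1.36, 1.82 and 2.03 against -0.02, 0.12 and -0.02 (1.71 ± 0.27, SE, limma adjusted p = 0.00809), and Ubc7, at 0.69, 1.56 and 0.87 against -0.77, -0.85 and -0.58 (1.77 ± 0.30, adjusted p = 0.00954). Both act in the disposal of misfolded proteins from this compartment. Sec61beta of the entry channel rose by 1.08 ± 0.25, Srp9 of the signal recognition particle by 1.14 ± 0.29 and OstDelta of the sugar transfer complex by 1.72 ± 0.29. GCS1, a glucosidase that trims new sugar chains, was the lower one (-2.41 ± 0.60), beside GCS2alpha, which acts after it and was higher (1.86 ± 0.42). Against the mean of both parents 6 of 30 were higher and 0 lower, beside 3.04% and 1.11% of all genes. With simulans arrays 1 and 2 averaged 2 of the 31 passed against D. simulans.

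Of 14 ESCRT genes, whose products cut membranes in vesicle budding and at the end of cell division, 4 were higher and 0 lower, with Chmp1 at 1.02, 2.11 and 2.56 against -0.30, 0.06 and -0.66 (2.19 ± 0.40, limma adjusted p = 0.0131) and Vps4, the ATPase that recycles the complex, up by 1.74 ± 0.36. Of 7 citric acid cycle genes 4 were higher and 0 lower. Scsalpha2, a copy of a succinyl-CoA synthetase subunit, was at 2.62, 3.30 and 3.57 against 0.68, 0.82 and 0.43 (2.52 ± 0.31, adjusted p = 0.0039), Idh3b rose by 2.14 ± 0.44, ScsbetaA by 1.45 ± 0.25 and mAcon2, an aconitase, by 1.19 ± 0.28. With simulans arrays 1 and 2 averaged, 1 of the ESCRT genes and 2 of the citric acid cycle genes passed. Against D. mauritiana 0 of the 7 citric acid cycle genes passed. Of the 14 ESCRT genes 0 were higher and 1 lower there, beside 1.54% and 1.26% of all genes. Against the mean of both parents 1 gene of each group was higher and 0 lower, beside 3.04% and 1.11%. The citric acid cycle median ran from 1.10 to 1.56 on the hybrid arrays and 0.53 to 2.24 in D. mauritiana.

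Of 52 cuticle protein genes 5 were lower and 0 higher, with a median of -0.28, and with simulans arrays 1 and 2 averaged 3 were. Cpr92F differed by -2.18 ± 0.36 and TwdlE by -1.28 ± 0.29, beside the 3 named among the lowest genes. Muscle markers were lower on the same arrays. The medians of those with a value were -4.40 to -3.16 against -1.83 to -1.19. The part of body tissue in these values was not tested. Taf12L, the testis TAF known as rye, was lower as well (-1.25), and did not pass with simulans arrays 1 and 2 averaged.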
